A study of Mus musculus with 12 samples.

Results

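The genes described here are 10 spermatogonial and early germ cell genes, read out in MIWI immunoprecipitates and in input RNA from mouse testes or cells sorted from them. They were taken from a fixed list of Ensembl IDs, in the order Kit, Zbtb16, Gfra1, Sohlh1, Dazl, Uchl1, Stra8, Crabp1, Sall4 and Dmrt1, and all 10 are among the 20345 genes of the deposited table. The symbols are those given with the list, since neither the table nor the reference used here pairs these IDs with names. MIWI (PIWIL1) is a PIWI protein of the male germ line and carries piRNAs, small RNAs that guide it to target transcripts, from the pachytene stage of meiosis onwards. The labels describe 12 samples, 2 for each combination of genotype (Miwi ADH/-, Miwi -/- or Miwi +/-) and of MIWI immunoprecipitate (IP) or input, all depleted of ribosomal RNA. The animals of all 3 genotypes carry at least 1 Miwi null allele. In Miwi ADH/- the other allele is ADH, which is known to lack the slicing activity of the protein, in Miwi +/- it is wild type, and the Miwi -/- IP is the control for RNA that the antibody recovers without MIWI. The labels give no age, and they do not say which samples came from whole testes and which from sorted cells.

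Spermatogonia are the mitotic cells at the base of the seminiferous tubule. Stem and undifferentiated spermatogonia rely on GDNF signalling and on transcription factors such as ZBTB16, differentiating spermatogonia on KIT and its ligand, and retinoic acid drives the entry into meiosis through STRA8. By the late spermatocyte stage most of this programme has been switched off, so the transcripts report how much early germ cell RNA a preparation holds. Dazl differs from the others, since germ cells go on making it into meiosis. Transcripts of other cells can add to these levels: Kit is also made by Leydig cells and, from an internal start, as a truncated form in spermatids, and Dmrt1 is also made by Sertoli cells. In bulk RNA, fewer cells of a type and less RNA per cell cannot be told apart.

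The table holds a single column for each of the 6 groups, in RPKM (reads scaled to gene length in kilobases and to 1000000 sequenced reads), so there are no replicate values. No difference below has a replicate check or a p-value, and each compares libraries, not conditions. RPKM steps in units of 1 read, which gave the reads behind each value. The 95% intervals are exact, rest on these reads, cover counting error only, treat reads as independent molecules and are not adjusted for their number. Where a column had 0 reads, a fold is given as at least that against the level of 3 reads in the column, with the end of the exact interval beside it, since that bound leaves out the counting error of the other column. The listed genes held 3706479 reads in the Miwi ADH/- IP, 1725558 in the Miwi +/- IP and 761525 in the Miwi -/- IP, against 2627634 to 3918947 in the inputs. Markers of late spermatocytes and of somatic cells, and the targeted gene itself, could not be matched to IDs and are not reported here.

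In the inputs, Dazl stood at 10.2 to 14.9 RPKM, Uchl1 at 4.31 to 6.14 RPKM, above 62.0% to 69.1% of listed genes, and the other 8 genes at no more than 3.20 RPKM. Dazl alone made up 48.8% of the summed RPKM of the 10 genes in Miwi ADH/-, 49.6% in Miwi -/- and 56.1% in Miwi +/-. The sum was 20.9 RPKM in Miwi ADH/-, 29.1 in Miwi -/- and 26.6 in Miwi +/-. At least 1 RPKM was reached by 4 of the 10 genes in Miwi ADH/-, 5 in Miwi -/- and 4 in Miwi +/-, against 56.9%, 53.6% and 57.0% of all listed genes in the same order. Per 1000000 reads in listed genes, the 10 genes held 93.2 reads in the Miwi ADH/- input (interval 81.9 to 106), 120.2 in the Miwi -/- input (109 to 132) and 118 in the Miwi +/- input (108 to 129). By this measure Miwi ADH/- was the lowest of the inputs, and its interval lay below those of the other inputs. Without Dazl the values were 32.0 (25.5 to 39.6), 42.5 (36.2 to 49.6) and 36.0 (30.3 to 42.4), and these intervals overlap.

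**Figure D1:**
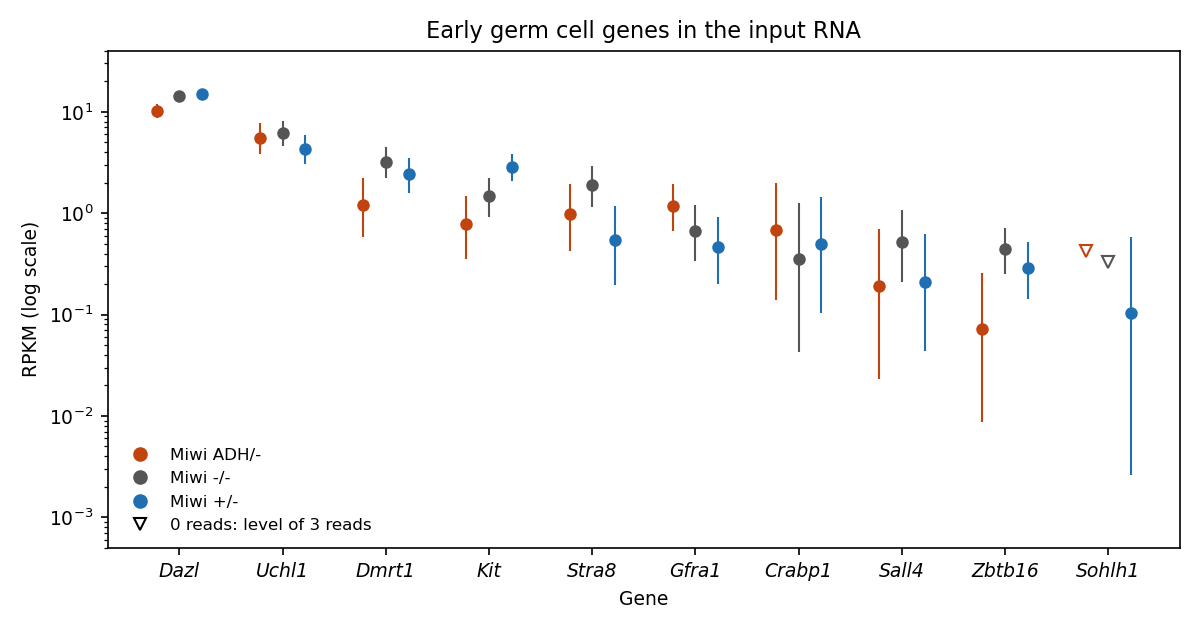
Level of each gene in the input RNA of Miwi ADH/-, Miwi -/- and Miwi +/- in RPKM on a log axis. Points are the single columns, bars are 95% counting intervals, and open triangles mark the level of 3 reads where a column had 0 reads; Dazl lies at 10.2 to 14.9 RPKM and every other gene at 6.14 RPKM or below.

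Dazl (ENSMUSG00000010592), an RNA-binding protein needed for germ cell development, stood at 10.2 RPKM (161 reads) in the Miwi ADH/- input, 14.5 (296 reads) in the Miwi -/- input and 14.9 (322 reads) in the Miwi +/- input. It ranked above 75.2%, 79.7% and 79.5% of listed genes there. Its value in Miwi ADH/- was 0.682 times that in Miwi +/- (0.561 to 0.827), while Miwi -/- and Miwi +/- could not be separated at this depth (0.970, 0.825 to 1.14). The log2 difference of the Miwi ADH/- input from the Miwi +/- input had a median of -0.16 over the 12246 genes that reached 1 RPKM in 2 or more columns. Dazl lay 0.35 log2 units below that median. Over all listed genes the median was -0.005.

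Uchl1 (ENSMUSG00000029223), a ubiquitin hydrolase abundant in spermatogonia, followed at 5.56 RPKM (35 reads) in Miwi ADH/-, 6.14 (50 reads) in Miwi -/- and 4.31 (37 reads) in Miwi +/-. The intervals of all pairwise ratios included equality. Dmrt1 (ENSMUSG00000024837), a transcription factor that holds spermatogonia back from meiosis, had 1.22 RPKM (10 reads) in Miwi ADH/-, 3.20 (34 reads) in Miwi -/- and 2.41 (27 reads) in Miwi +/-. The Miwi ADH/- level was 0.381 times that of Miwi -/- (0.168 to 0.788) and 0.506 times that of Miwi +/- (0.218 to 1.08), so only the first of these excluded equality.

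Kit (ENSMUSG00000005672), the receptor of stem cell factor on differentiating spermatogonia, was the gene with the widest gap between a mutant input and the Miwi +/- input among those that met the level filter. It had 0.775 RPKM (9 reads) in Miwi ADH/-, 1.46 (22 reads) in Miwi -/- and 2.84 (45 reads) in Miwi +/-. Its Miwi ADH/- level was 3.66-fold lower than the Miwi +/- level (1.77 to 8.52) and the Miwi -/- level 1.94-fold lower (1.14 to 3.39). Both mutant inputs thus lay below Miwi +/- beyond counting error, and the mutants could not be separated from each other (0.529, with an interval that included equality). The log2 difference of Kit between Miwi ADH/- and Miwi +/-, with a pseudocount of 1, was -1.11, and it was -0.95 relative to the median gene.

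Stra8 (ENSMUSG00000029848), the retinoic acid target that starts meiosis, ran another way, with 0.981 RPKM (8 reads) in Miwi ADH/-, 1.89 (20 reads) in Miwi -/- and 0.539 (6 reads) in Miwi +/-. The Miwi -/- level was 3.52 times the Miwi +/- level (1.36 to 10.7), and the Miwi ADH/- level could not be separated from either. Only 6 reads stand behind the Miwi +/- value.

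The other genes had at most 16 reads in any input. Gfra1 (ENSMUSG00000025089), the co-receptor for GDNF on undifferentiated spermatogonia, had 1.19 RPKM in Miwi ADH/- (15 reads), 0.673 in Miwi -/- (11 reads) and 0.464 in Miwi +/- (8 reads). Its Miwi ADH/- level was 2.56 times that of Miwi +/-, with an interval of 1.02 to 6.97 that barely excluded equality. Zbtb16 (ENSMUSG00000066687), the zinc finger factor that maintains undifferentiated spermatogonia, had 0.0714 RPKM in Miwi ADH/- (2 reads), 0.442 in Miwi -/- (16 reads) and 0.288 in Miwi +/- (11 reads). These genes of the same early cells thus pointed in different directions between the Miwi ADH/- and Miwi +/- inputs, the second of them with an interval that includes equality (0.248, 0.0267 to 1.14). Against the Miwi -/- input, Zbtb16 in Miwi ADH/- was 6.18-fold lower (1.45 to 55.4, from 2 reads).

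Crabp1 (ENSMUSG00000032291), a cytoplasmic retinoic acid binding protein of spermatogonia, had 2 or 3 reads in each input, at 0.682 RPKM in Miwi ADH/-, 0.351 in Miwi -/- and 0.499 in Miwi +/-. Sall4 (ENSMUSG00000027547), a zinc finger factor of undifferentiated and differentiating spermatogonia, had 0.192 RPKM in Miwi ADH/- (2 reads), 0.520 in Miwi -/- (7 reads) and 0.211 in Miwi +/- (3 reads). Sohlh1 (ENSMUSG00000059625), a helix-loop-helix factor of spermatogonial differentiation, had reads in no column but the Miwi +/- input, at 0.104 RPKM. A value in a single column gives no step, and it was taken as 1 read, so that 3 reads would stand for 0.424 RPKM in the Miwi ADH/- input and 0.328 in the Miwi -/- input. No difference of Crabp1, Sall4 or Sohlh1 between inputs was detectable at this depth.

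Of the 10 genes, 5 reached 1 RPKM in 2 or more columns (Kit, Dazl, Uchl1, Stra8 and Dmrt1) and were compared by fold with the 12246 genes that met the same filter. The fold was taken on the log2(RPKM + 1) scale, which understates differences of low genes, and 2-fold is a rule of size, not a test. In the Miwi ADH/- input, Kit alone among the 5 was 2-fold or more below Miwi +/-, as were 7.42% of all genes, and none was 2-fold above it, as were 7.80% of all genes. In the Miwi -/- input none of the 5 differed 2-fold from Miwi +/-, where 4.47% of all genes were higher and 10.6% lower. Between the Miwi ADH/- and Miwi -/- inputs none did either, against 12.6% and 6.54%. The median log2 difference over all 10 genes was -0.08 for Miwi ADH/- over Miwi +/-, 0.18 for Miwi -/- over Miwi +/- and -0.39 for Miwi ADH/- over Miwi -/-, beside -0.16, -0.02 and -0.18 for the 12246 genes. Over all listed genes, with no filter, the medians were -0.005, 0.00 and -0.03 in the same order. The first value of the 10 genes thus lay above the filtered median and below the unfiltered one.

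In the IPs, the same genes were spread more widely, and the Miwi ADH/- IP held the least of them. Per 1000000 reads in listed genes they took 69.9 reads in the Miwi ADH/- IP (61.6 to 78.9), 235 in the Miwi +/- IP (212 to 259) and 276 in the Miwi -/- control IP (239.7 to 316). The share in the Miwi ADH/- IP lay below that of its own input (93.2), while those of the Miwi +/- and Miwi -/- IPs lay above theirs (118 and 120.2). Without Dazl the Miwi ADH/- IP was again the lowest, at 22.9 reads in Miwi ADH/- (18.3 to 28.4), 66.1 in Miwi +/- (54.5 to 79.4) and 61.7 in Miwi -/- (45.3 to 82.1). By this share the control IP, which lacks MIWI, held about as much as the Miwi +/- IP. The summed RPKM was 10.7 in the Miwi ADH/- IP, 30.3 in the Miwi +/- IP and 19.7 in the Miwi -/- IP. Without Dazl these sums were 4.97, 13.1 and 6.12. On that scale the control IP lay below the Miwi +/- IP and below its own input (29.1). It was also the shallowest column, with 6 of the 10 genes at 0 reads, against 2 in the Miwi ADH/- IP and 3 in the Miwi +/- IP, and 47.4%, 27.9% and 35.3% of all listed genes at 0 in the same order.

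**Figure D2:**
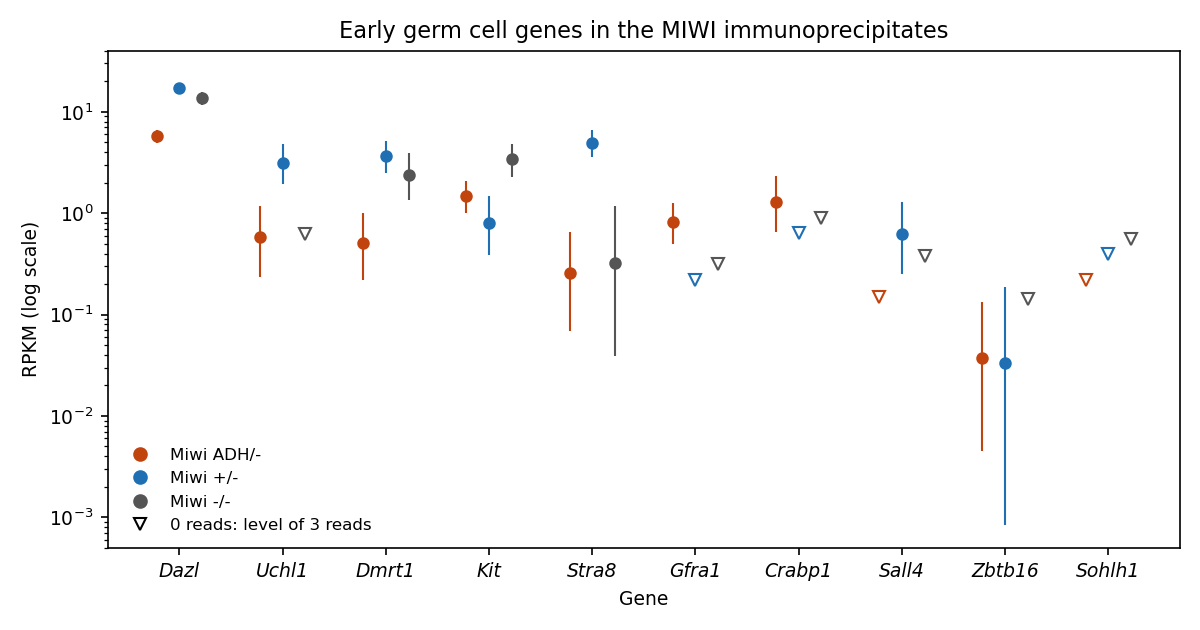
Level of each gene in the MIWI IPs of Miwi ADH/-, Miwi +/- and Miwi -/- in RPKM on a log axis, drawn as for the inputs. Dazl, Uchl1, Dmrt1 and Stra8 lie lower in the Miwi ADH/- IP than in the Miwi +/- IP, and Gfra1 and Crabp1 have reads in the Miwi ADH/- IP alone among the IPs.

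Dazl had 5.71 RPKM (174 reads) in the Miwi ADH/- IP, 17.2 (291 reads) in the Miwi +/- IP and 13.6 (163 reads) in the Miwi -/- IP. It was 3.01-fold lower in the Miwi ADH/- IP than in the Miwi +/- IP (2.48 to 3.65) and 2.38-fold lower than in the control IP (1.91 to 2.96). The Miwi +/- IP exceeded the control by a factor of 1.27 (1.04 to 1.54) on the deposited scale, but its rank was the lower of the pair, above 88.8% of listed genes in the Miwi +/- IP and above 92.2% in the Miwi -/- IP. In the Miwi ADH/- IP it ranked above 71.6%. Set against the inputs, Dazl was at 0.561 times its input level in Miwi ADH/- (0.450 to 0.699), and its IP and input levels could not be separated in Miwi +/- (1.15, 0.978 to 1.35) or in Miwi -/- (0.937, 0.769 to 1.14).

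Among the IPs, Stra8 was highest in Miwi +/-, as were Dazl, Uchl1, Dmrt1 and Sall4 in RPKM as deposited. Stra8 had 0.254 RPKM (4 reads) in the Miwi ADH/- IP, 4.91 (43 reads) in the Miwi +/- IP and 0.322 (2 reads) in the Miwi -/- IP. The Miwi +/- IP was high and the others low, with no overlap of their intervals. The Miwi +/- level was 15.2 times the control level (3.97 to 130), and the Miwi ADH/- level was 19.3-fold lower than the Miwi +/- level (7.02 to 74.1). Relative to input, Stra8 was 9.12-fold higher in the Miwi +/- IP (3.86 to 26.2), from 43 reads against 6. It was 3.86-fold lower in the Miwi ADH/- IP (1.03 to 17.5) and 5.87-fold lower in the Miwi -/- IP (1.43 to 51.8), where it nevertheless lay 0.24 log2 units above the median gene, since most genes were lower in that IP than in the input. Of the 12246 genes, 99.2% had a smaller IP-minus-input log2 difference in Miwi +/- than the 1.94 of Stra8, a description only, since Stra8 met the level filter through this IP value and its Miwi -/- input value. Since 1 column stands for each group, whether both Miwi +/- samples carry this signal was not tested.

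**Figure D3:**
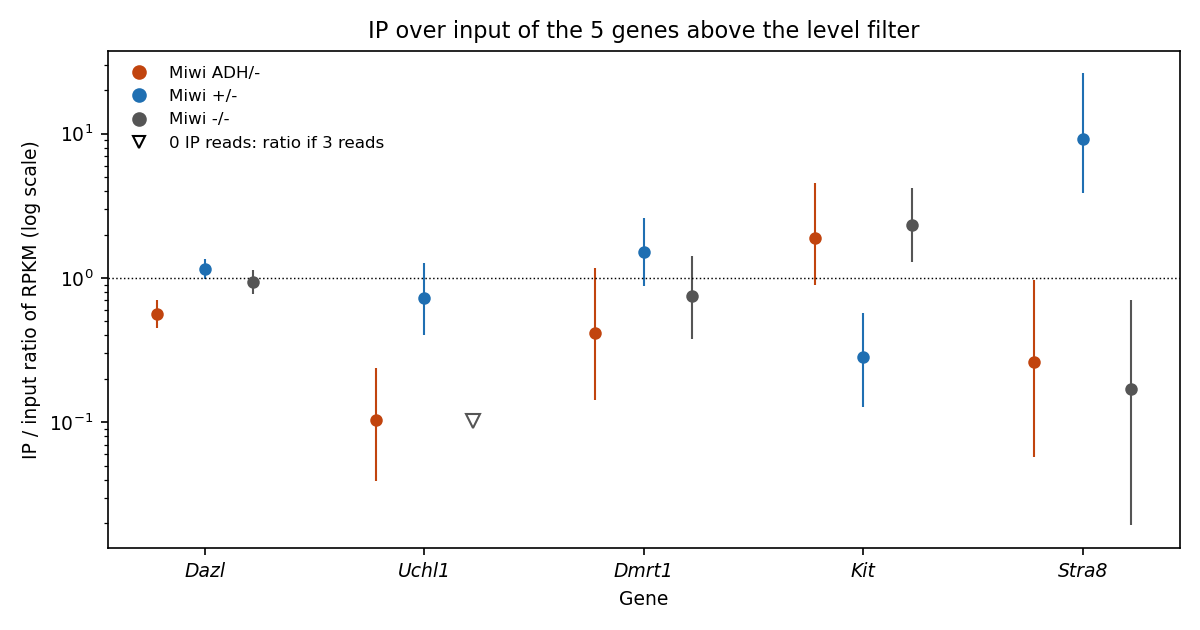
IP level divided by input level on a log axis for the 5 genes that met the level filter, in Miwi ADH/-, Miwi +/- and Miwi -/-. Bars are 95% counting intervals, the open triangle is the ratio that 3 IP reads would give for Uchl1 in Miwi -/-, and the dotted line marks equality; Stra8 in Miwi +/- lies furthest above it, at 9.12.

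Uchl1 had 0.577 RPKM (7 reads) in the Miwi ADH/- IP, 3.11 (21 reads) in the Miwi +/- IP and 0 reads in the Miwi -/- IP, where 3 reads would give 0.627 RPKM. Relative to the Miwi -/- input its level there was at least 9.79-fold lower (interval from 7.67), and 29.4 reads would have matched the input level. In Miwi ADH/- it was 9.64-fold lower in the IP (4.22 to 25.7), while in Miwi +/- the IP and input levels could not be separated (0.722, 0.402 to 1.27). The Miwi +/- IP was thus the only IP in which Uchl1 was recovered near its input level, and it stood at least 4.96-fold above the control IP (interval from 3.69).

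Dmrt1 had 0.505 RPKM (8 reads) in the Miwi ADH/- IP, 3.63 (32 reads) in the Miwi +/- IP and 2.40 (15 reads) in the Miwi -/- IP. The Miwi ADH/- level was 7.19-fold lower than the Miwi +/- level (3.24 to 18.1) and 4.75-fold lower than the control level (1.89 to 12.9). The Miwi +/- IP could not be separated from the control IP (1.51, with an interval that included equality), and no IP of Dmrt1 could be separated from its own input.

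Kit had its highest IP level in the control, on the deposited scale and by rank, while Dazl and Dmrt1 were highest there by rank and with equal column sums, but not in RPKM as deposited. It had 1.47 RPKM (33 reads) in the Miwi ADH/- IP, 0.803 (10 reads) in the Miwi +/- IP and 3.40 (30 reads) in the Miwi -/- IP. The Miwi +/- level was 4.23-fold lower than the control level (2.01 to 9.71) and the Miwi ADH/- level 2.31-fold lower (1.36 to 3.90). Relative to input, Kit was 3.54-fold lower in the Miwi +/- IP (1.76 to 7.87) and 2.32-fold higher in the Miwi -/- IP (1.29 to 4.22), with 1.90 (0.890 to 4.52) in Miwi ADH/-. A low level in the Miwi +/- IP was near what genes in general showed there, since Kit lay 0.32 log2 units below the median gene.

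The genes under the filter were mostly at or near 0 in the IPs. Gfra1 had 20 reads (0.821 RPKM) in the Miwi ADH/- IP and 0 in the Miwi +/- and Miwi -/- IPs, at least 3.71-fold above the Miwi +/- IP (interval from 2.75) and at least 2.63-fold above the control (from 1.95). Its Miwi ADH/- IP level was 0.692 times the input level (0.337 to 1.45). Crabp1 had 11 reads (1.30 RPKM) in the Miwi ADH/- IP and 0 in the Miwi +/- and Miwi -/- IPs, at least 2.04-fold above the Miwi +/- IP (interval from 1.40), while the interval against the control, from 0.990, included equality. Sall4 showed the opposite, with 0 reads in the Miwi ADH/- IP, 7 (0.627 RPKM) in the Miwi +/- IP and 0 in the Miwi -/- IP, at least 4.19-fold lower in Miwi ADH/- than in Miwi +/- (interval from 2.59). By the depth to which RPKM is scaled, though not by reads in listed genes, the Miwi ADH/- IP is the deepest column, at 1.41 times the Miwi +/- input. Thus 3 reads of Crabp1 would give 0.354 RPKM there, 0.635 in the Miwi +/- IP and 0.896 in the Miwi -/- IP. Zbtb16 had 2 reads in the Miwi ADH/- IP, 1 in the Miwi +/- IP and 0 in the Miwi -/- IP, and Sohlh1 had none in any IP.

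Counted by fold, 4 of the 5 filtered genes (Dazl, Uchl1, Stra8 and Dmrt1) were at least 2-fold lower in the Miwi ADH/- IP than in the Miwi +/- IP, where 7.48% of the 12246 genes were, and none was higher, where 18.0% were. Stra8 met the filter through its Miwi +/- IP and Miwi -/- input values only, and the number of genes is a description. Against the control, Dazl and Dmrt1 were at least 2-fold lower in the Miwi ADH/- IP (4.93% of all genes) and none of the 5 was higher (51.8%). In the Miwi +/- IP, Uchl1 and Stra8 were at least 2-fold above the control (42.1% of all genes) and Kit was at least 2-fold below it (5.37%). The IP comparisons share columns in pairs. Over all 10 genes the median was -0.35 (log2) for the Miwi ADH/- IP over the Miwi +/- IP, beside 0.21 for the 12246 genes, 0.00 beside 1.05 for Miwi ADH/- over the control, and 0.18 beside 0.77 for Miwi +/- over the control. The 12246 genes met the filter, while 5 of the 10 did not. Over all listed genes the medians were 0.00, 0.36 and 0.16 in the same order. The 0.00 of the 10 genes is the value of Sall4 and Sohlh1, which had 0 reads in both of those IPs.

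Against their own inputs, the filtered genes at least 2-fold lower in the IP were Uchl1 in Miwi ADH/- (25.0% of all genes), Kit in Miwi +/- (40.6%) and both Uchl1 and Stra8 in Miwi -/- (60.9%). Relative to the median gene only Uchl1 stayed 2-fold lower, at -1.65 (log2) in Miwi ADH/- and -1.46 in Miwi -/-, and Dmrt1 in Miwi +/- (1.21) and Kit, Dazl and Dmrt1 in Miwi -/- (2.21, 1.29 and 1.07) joined Stra8 on the higher side. The share of all genes counted with this centring was not computed. Uchl1 lay above 4.55% of the 12246 genes in Miwi ADH/- and above 16.4% in Miwi -/-. Dmrt1 in Miwi +/- lay above 88.8% of them. In Miwi -/-, Kit, Dazl and Dmrt1 lay above 95.4%, 82.3% and 78.0%. Without this centring, Stra8 in Miwi +/- was the only one at least 2-fold higher (4.24% of all genes there, 4.83% in Miwi ADH/- and 3.67% in Miwi -/-). It met the level filter through that IP value and its Miwi -/- input value. The median of the 10 genes was -0.26 in Miwi ADH/-, -0.23 in Miwi +/- and -0.48 in Miwi -/-, beside -0.41, -0.77 and -1.37 for the 12246 genes. Over all listed genes the medians were -0.19, -0.32 and -0.55 in the same order. Low genes lie nearer to 0 on this scale, which bears on the medians of a list with 5 of 10 members under the filter.

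**Figure D4:**
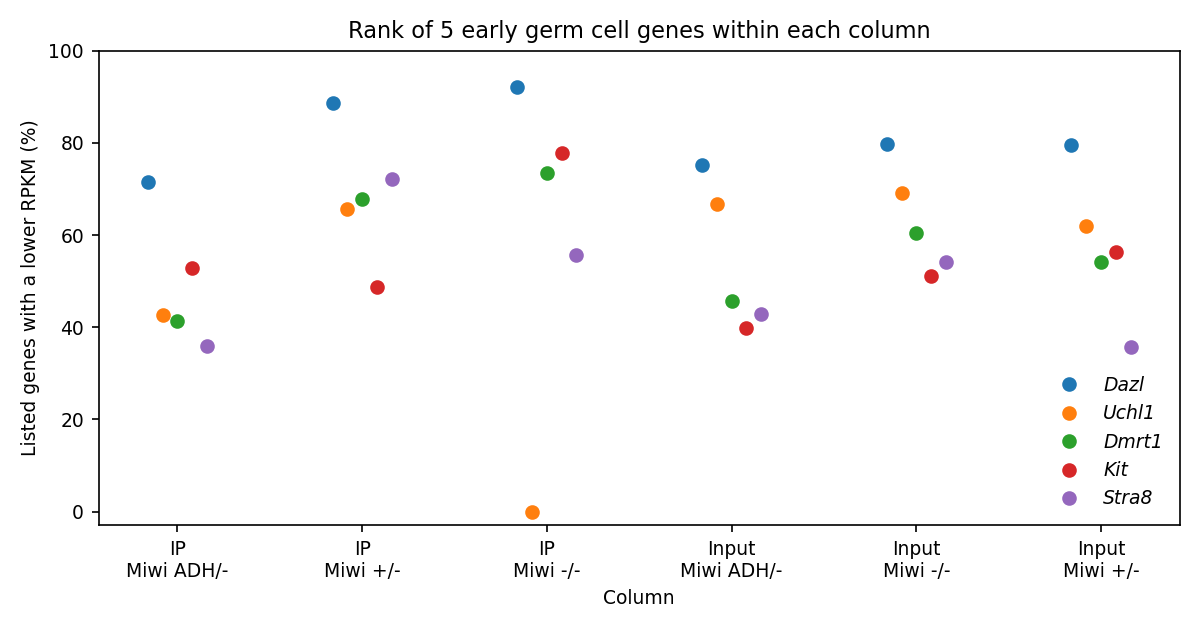
Percent of listed genes with a lower RPKM than each of 5 early germ cell genes, within each IP (left) and input (right) column, a measure that does not depend on how columns are scaled. Kit ranks highest in the Miwi -/- IP (77.8%) and Stra8 in the Miwi +/- IP (72.1%); Uchl1 has 0 reads in the Miwi -/- IP.

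Ranks within a column, which no scaling changes, were lower in the Miwi ADH/- IP than in the Miwi +/- IP for Dazl, Uchl1, Dmrt1 and Stra8, as the RPKM were. They differed from the RPKM in placing Dazl and Dmrt1 highest in the control IP, and Stra8 slightly higher in the control IP than in its input. Stra8 ranked above 35.9% of listed genes in the Miwi ADH/- IP, 72.1% in the Miwi +/- IP and 55.7% in the Miwi -/- IP, against 42.9% in the Miwi ADH/- input, 54.1% in the Miwi -/- input and 35.7% in the Miwi +/- input. The rank in the control IP rests on 2 reads in a column where 47.4% of genes have none. Kit ranked above 52.9%, 48.8% and 77.8% in the Miwi ADH/-, Miwi +/- and Miwi -/- IPs, and Dmrt1 above 41.4%, 67.8% and 73.4%. In its rank too, Dmrt1 was lowest in the Miwi ADH/- IP, while the control IP was its highest column. Any gene with reads in the control IP ranks above the 47.4% at 0 there. In the Miwi ADH/- and Miwi +/- IPs 27.9% and 35.3% of genes were at 0. The high control ranks of Kit, Dazl and Dmrt1 thus depend in part on depth.

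Combining IP and input, the IP-minus-input log2 difference was compared between genotypes. Stra8 was 3.07 higher in Miwi +/- than in Miwi -/- and stood at -2.60 in Miwi ADH/- over Miwi +/-. It met the level filter only through its Miwi +/- IP and Miwi -/- input values, which enter these differences. The values of Stra8 and its place in the count below are thus a description only. Uchl1 was 2.47 higher in Miwi +/- than in Miwi -/-, with 39.3% of all genes at least 2-fold higher by this measure, and stood at -1.69 in Miwi ADH/- over Miwi +/-. The size of the first value is set by the pseudocount, since Uchl1 had 0 reads in the Miwi -/- IP, and it was 5.51 with a pseudocount of 0.1. Kit was at -1.93 in Miwi +/- over Miwi -/-, where 9.56% of all genes were at least 2-fold lower, and at 1.57 in Miwi ADH/- over Miwi +/-, where 20.5% were at least 2-fold higher. Uchl1, Stra8 and Dmrt1 were at least 2-fold less enriched in Miwi ADH/- than in Miwi +/-, against 7.56% of all genes, with Dmrt1 at -1.00, at the limit. Dazl, at -0.93, joined them with a pseudocount of 0.1, relative to the median gene and with equal column sums. Against the control, none of the 5 was 2-fold apart in Miwi ADH/-, where 51.9% of all genes were higher and 7.30% lower.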

How the data were processed

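The authors deposited 1 table of RPKM, in 6 columns for 20345 Ensembl gene IDs, made from ribosomal RNA-depleted libraries of 12 samples. The unit stands in the names of the 2 Miwi +/- columns, per the file headers; the others share their read steps, and RPKM was assumed for them. Per the submitters' processing notes, TopHat, Bowtie and mm9 are the tools and build named, without versions; no source used here gives the read counter or the gene models. Nothing says if a column is a single sample or a pool of its group.

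Column depths relative to the Miwi +/- input came from the commonest exact ratio of values, and the reads of a gene are the smallest whole numbers in the resulting proportions (within 0.002 reads plus 1e-07 of the number). All values (100%) of genes with values in more than 1 column came out whole; a value in a single column was taken as 1 read. For a gene with values in only 2 columns the search finds whole numbers almost whatever the values, so the 100% says little about such genes. All members but Sohlh1 had values in 4 or more columns. A whole multiple of these reads would give the same RPKM and narrower intervals. The recovery was tested on data simulated from the recovered reads themselves, which cannot show whether such a multiple was missed. Differences are of log2(RPKM + 1) among the 12246 genes that reached 1 RPKM in 2 or more columns, and ratios of reads have exact Clopper-Pearson 95% intervals, conditional on the summed reads; levels have exact Poisson intervals. No replicate column exists, so no test was run. The alternatives were a pseudocount of 0.1, no filter, centring on the median gene, equal column sums and a 4-fold rule.

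The 10 genes, the lists and the rules were chosen with earlier results of these data known. All 10 are described; no other gene is named, because 0 IDs matched the reference, and the marker lists for spermatogonia, spermatocytes, spermatids and somatic cells gave no values for that reason. Python 3.11.15, numpy 2.4.6, pandas 2.3.3 and scipy 1.17.1 were used.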

Additional observations from a re-analysis of the deposited data

Results flagged for a closer look

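With values as deposited, Stra8 moved in opposite directions in the IPs of different genotypes. On the log2(RPKM + 1) scale it was 1.94 above its input in the Miwi +/- IP and -1.13 relative to its input in the Miwi -/- IP, each at least 2-fold. In Miwi +/- these values rest on 43 IP and 6 input reads, and in Miwi -/- on 2 IP and 20 input reads. Of the 12246 genes, 60.9% were at least 2-fold lower in the Miwi -/- IP and 4.24% at least 2-fold higher in the Miwi +/- IP. Relative to the median gene, Stra8 stood at 0.24 in Miwi -/- and 2.71 in Miwi +/-, so with this centring the directions were not opposite. The difference between the IPs was not tested, since each group has 1 column. Stra8 met the level filter through the Miwi +/- IP and the Miwi -/- input, which enter these differences, so their size is a description.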

How the results depend on the processing

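No paired analysis was possible because the table has 1 column per group and no replicate numbers, and for the same reason no replicate was left out. The shares of all genes given above hold for the main setting and were not computed under the alternatives. The numbers of genes below thus describe these genes and cannot be set against genes in general. With a pseudocount of 0.1, 1 gene was at least 2-fold higher in the Miwi -/- than in the Miwi +/- input (Stra8) and 1 lower in the Miwi ADH/- than in the Miwi -/- input (Dmrt1), where there were none before. Relative to input it also gave 3 lower genes in the Miwi ADH/- IP (Uchl1, Stra8, Dmrt1) and 1 higher gene in the Miwi -/- IP (Kit), and 1 (Uchl1) higher in Miwi ADH/- than in Miwi -/-, both between IPs and in IP enrichment. Without the filter Crabp1 was added as higher for the Miwi ADH/- IP over the Miwi -/- IP (1 gene) and over the Miwi +/- IP (1), and in enrichment over Miwi +/- (2, with Kit), and Sall4 as more enriched in Miwi +/- than in Miwi -/- (3, with Uchl1 and Stra8). Kit joined Dazl and Dmrt1 as lower in the Miwi ADH/- than in the Miwi -/- IP with a pseudocount of 0.1 and with equal column sums (3 each).

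Relative to the median gene, Kit no longer counted as lower in the Miwi ADH/- input than in Miwi +/- (0 genes) or for IP over input in Miwi +/- (0). There, 2 genes were higher (Stra8, Dmrt1). In the Miwi -/- IP, 3 genes were then higher than in the input (Kit, Dazl, Dmrt1) and 1 lower (Uchl1), and Stra8 turned to 0.24 from -1.13. The Miwi ADH/- IP then had 4 genes lower than the Miwi -/- IP (Kit, Dazl, Stra8, Dmrt1) and 3 less enriched (Kit, Dazl, Dmrt1). Dazl joined the genes less enriched in Miwi ADH/- than in Miwi +/- under both scalings and with a pseudocount of 0.1 (4 each). With equal column sums, IP over input gave 3 genes higher and 0 lower in Miwi +/- (Dazl, Stra8 and Dmrt1 higher), 2 higher and 1 lower in Miwi -/- (Kit and Dazl higher, Uchl1 lower), and 3 less enriched in Miwi ADH/- than in Miwi -/- (Kit, Dazl, Dmrt1). The 4 genes lower in the Miwi ADH/- than in the Miwi +/- IP numbered 4 under both scalings.

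At 4-fold, 1 gene was lower in the Miwi ADH/- than in the Miwi +/- IP and 1 less enriched there (Stra8 in both), and 1 was lower for IP over input in Miwi -/- (Uchl1). The counts were 0 for Kit in the Miwi ADH/- input, for both directions of IP over input in Miwi +/-, for lower in the Miwi ADH/- and the Miwi +/- IP against the Miwi -/- IP, for less enriched in Miwi +/- than in Miwi -/- and for more enriched in Miwi ADH/- than in Miwi +/-. IP comparisons of levels were added after seeing the data. Depth limits every gene but Dazl.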
